A study of Mus musculus with 2 samples.

Results

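Pericytes are described here: 584 of 24541 kept barcodes, 288 of 13465 in a vehicle library and 296 of 11076 in a fluconazole library. The members were chosen by their UMI counts (a UMI, or unique molecular identifier, is a counted transcript): a barcode was taken if it held a UMI of at least 3 of the 6 genes Kcnj8, Abcc9, Vtn, Rgs5, Pdgfrb and Atp13a5. It also had to hold at most 3 UMIs of the smooth muscle genes Acta2, Myh11 and Tagln together, at most 2 of the endothelial genes Flt1, Pecam1 and Mecom, and at most 1 of Slc17a7, Cx3cr1 and Dcn (neurons, microglia and fibroblasts). Kept barcodes had at least 500 genes and at most 5% mitochondrial UMIs. Both libraries came from mice labelled Shank3-/-, which lack a scaffold protein of excitatory synapses. One group drank vehicle (labelled MOCK) and the other fluconazole, an azole antifungal, for 2 weeks. There is no wild-type library, and sex, age, dose and the number of mice per library are not stated. The samples are labelled as brain, and the design text names the prefrontal cortex. It speaks of cells and nuclei, the extraction text of nuclei alone, so droplets are called barcodes.

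Pericytes are mural cells that sit on capillaries inside the basement membrane shared with endothelial cells. They are recruited by PDGF-B acting on the receptor Pdgfrb, help to keep the blood-brain barrier, and adjust capillary width through calcium and potassium channels. Brain pericytes are known for the ATP-sensitive potassium channel made of Kcnj8 and Abcc9, for the matrix protein vitronectin (Vtn) and for uptake carriers of the solute carrier families. Fluconazole blocks the fungal form of the sterol demethylase Cyp51. Lipid rafts, the receptor IGF1R and circuits of the prefrontal cortex are named in the title. Genes of sterol synthesis, rafts and IGF1R signalling are therefore given below for pericytes.

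Each treatment has 1 library, so no test between treatments exists. Ratios are fluconazole over vehicle, from UMIs summed over members and scaled to CPM, the UMIs per 1000000 of the summed total. Bracketed ranges are exact 95% intervals that cover counting error only, with every UMI taken as an independent draw. They are too narrow where few barcodes hold a gene's UMIs. The libraries held 76891692 and 78380009 UMIs. Vehicle members held 753698 UMIs and fluconazole members 1047451, with medians of 2013 and 2640 UMIs and of 1302 and 1616 genes per barcode. Median mitochondrial shares were 2.68% and 2.64%. Scrublet marked 6 and 8 members as doublets, and these were left in. The libraries shared 45 barcode sequences, of which 0 were members in both and 2 were members in 1.

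The label held for most members and not for all. Of 29 pericyte genes that the rule did not use, 28 were measured (at least 20 UMIs over both libraries), and 28 of 28 had a higher CPM in members than in all other kept barcodes in both libraries. Over all 10453 genes measured in members that share was 45.7%. Against the highest of the smooth muscle, endothelial and fibroblast classes described below, only 14 of the 28 were higher in members in both libraries. In both libraries Mcam was higher in smooth muscle, Tbx18 in fibroblasts and Foxf2 in endothelial cells. The 28 genes are part of what separates the same barcodes, so these counts describe the group and test nothing. On the other side, 27 vehicle and 28 fluconazole members held more UMIs of another class's marker list than of pericyte genes. The leading list was that of astrocytes in 10 and 11, of glutamatergic neurons in 7 and 9, of oligodendrocytes in 5 and 5, and of GABAergic neurons or neuroblasts in 4 and 0. Of these members 24 and 23 had passed with exactly 3 of the 6 genes. They were deep, with medians of 4829 and 7662 UMIs, and so gave 25.7% and 27.2% of all member UMIs. Scrublet had marked 2 and 3 of them.

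The 261 vehicle and 268 fluconazole members left, called pericyte-led members below, held 559707 and 762092 UMIs. This split was chosen after the data were seen, and 8 and 3 members lay within 1.5 times of its limit. Values below are for all members unless pericyte-led members are named, and not every value is given for both.

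**Figure D1:**
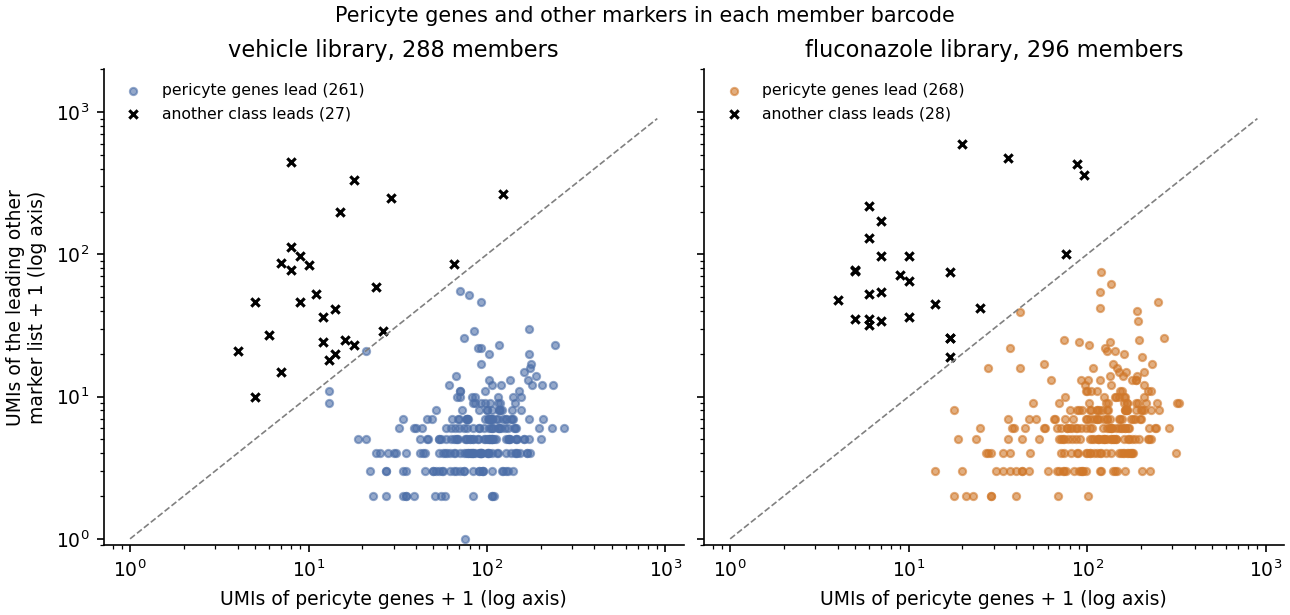
Each point is 1 member barcode, with its UMIs of pericyte genes on the x axis and of the leading other marker list on the y axis (both plus 1, log axes), by library. Crosses above the dashed line of equal counts are the 27 vehicle and 28 fluconazole members led by another class, most of them with few pericyte UMIs.

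The limit on the number of rule genes shows the same. Members with 3 of the 6 genes numbered 43 and 46, and their summed level of the other pericyte genes had a median of 28.3 and 34.6 UMIs per 10000. Members with all 6 numbered 129 and 156, at 238 and 227 per 10000. Barcodes just outside, with 2 of the genes and inside every other limit, numbered 182 and 192, at 4.26 and 4.08. At the endothelial limit, 32 and 36 members held exactly 2 UMIs of Flt1, Pecam1 and Mecom, at 209 and 181 per 10000. The 10 and 23 barcodes outside it with 3 such UMIs were at 143 and 199. At the smooth muscle limit, 12 and 10 members with 3 UMIs were at 125 and 180. The 4 and 6 barcodes with 4 such UMIs were at 192 and 170. At the limit on Slc17a7, Cx3cr1 and Dcn, 41 and 54 members with 1 UMI were at 210 and 160. The 15 and 13 barcodes with 2 such UMIs were at 53.3 and 185. Barcodes outside these limits were thus not always poorer in pericyte genes. Before the limits on other classes 800 and 889 barcodes had at least 3 of the 6 genes.

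Members made up 2.14% (1.90 to 2.40) of kept vehicle barcodes and 2.67% (2.38 to 2.99) of kept fluconazole barcodes, a ratio of 1.25 (1.06 to 1.47). For pericyte-led members the shares were 1.94% and 2.42%, and the ratio 1.25 (1.05 to 1.49). Fluconazole barcodes were deeper, with a median of 5410.5 against 4422 UMIs. With 0 endothelial UMIs allowed the ratio was 1.10 (0.884 to 1.38), and with each barcode thinned to 1500 UMIs before the rule it was 1.46 (1.23 to 1.74). The part of dissection and tissue dissociation in these shares was not tested.

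The 6 genes of the rule define the members, and their levels are a description. Endothelial barcodes were chosen to hold UMIs of at most 1 of these 6 genes, so their low levels there follow from that choice. Vtn stood at 10112 CPM in vehicle and 9657 CPM in fluconazole pericytes, against 1540 and 2560 CPM in smooth muscle cells, 2952 and 5988 CPM in fibroblasts and 14 and 15 CPM in endothelial cells. Both channel subunits were likewise highest in pericytes. Kcnj8, the pore of the ATP-sensitive potassium channel, was at 686 and 610 CPM in pericytes and at 44.5 and 49.3 CPM in smooth muscle. Abcc9, its sulfonylurea receptor subunit, was at 795 and 889 CPM against 24.1 and 28.6 CPM. Atp13a5, a transport ATPase, was at 2034 and 1995 CPM against 183 and 257 CPM. In the fluconazole fibroblast class, of 25 barcodes, these 3 genes were closer to pericytes, with Kcnj8 at 188, Abcc9 at 257 and Atp13a5 at 651 CPM. Rgs5, a brake on G protein signalling, was the exception. Its level was 3130 and 2932 CPM in pericytes and 4720 and 5360 CPM in smooth muscle, the higher of the classes in both libraries.

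A UMI of Vtn was found in 96.9% (94.2 to 98.6) of vehicle and 94.9% (91.8 to 97.1) of fluconazole members. Microglia had a Vtn UMI in 6.68% and 9.77% of barcodes at median depths of 4621.5 and 5978 UMIs. Microglia were chosen to hold UMIs of at most 1 of the 6 pericyte genes. Their shares for Vtn and Kcnj8 are therefore held down by that choice and give no independent background level. Thinned to 1000 UMIs these shares were 90.5% and 89.2% in members and 1.45% and 1.58% in microglia. For Kcnj8 the thinned shares were 46.9% and 46.2% in members and 0.0927% and 0.0857% in microglia.

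Comparison classes were set by UMI rules of the same kind: 190 and 169 smooth muscle, 2668 and 2462 endothelial and 38 and 25 fibroblast barcodes. Over smooth muscle and endothelial cells, 93 of 10453 genes (0.890%) were at least 4-fold higher in pericytes in both libraries, 3 of them genes that the rule used. Adding fibroblasts left 9 genes (0.0861%). Of the 9, 3 are among the 29 pericyte genes above. Wdr17, also of the 9, was at 314 and 303 CPM in pericytes and at 391 and 393 CPM in glutamatergic neurons. It was found in 11.1% and 10.8% of members. Caln1, another of the 9, was at 146 and 191 CPM in pericytes and at 267 and 297 CPM in those neurons. The 29 pericyte genes summed to 5075 CPM in the vehicle and 8798 CPM in the fluconazole fibroblast class, and to 15254 and 14503 CPM in members.

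Among genes outside the rule, those highest in pericytes over smooth muscle, endothelial cells and fibroblasts included receptors and enzymes. Art3, of the mono-ADP-ribosyltransferase family, was at 719 and 735 CPM in pericytes and at 125 and 172 CPM in smooth muscle. P2ry14, a receptor for UDP-glucose, was at 525 and 484 CPM against 136 and 149 CPM. Both were higher in pericytes than in each of those 3 classes in both libraries.

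Ggt1, a gamma-glutamyltransferase of glutathione breakdown, was at 138 and 166 CPM in pericytes, and at 1.20 and 5.73 CPM in smooth muscle. Pla1a, a phospholipase of phosphatidylserine, was at 195 and 251 CPM against 12 and 25.2 CPM. The receptors Pth1r (parathyroid hormone) and Grm3 (glutamate) stood at 285 and 260 CPM and at 848 and 1082 CPM in pericytes. Ntn1, a guidance cue, was at 141 and 152 CPM.

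Some genes of the same ranking, which left neurons out, rested on few barcodes and were higher in glutamatergic neurons than in pericytes. In the vehicle library Hs3st4 was at 84.9 CPM in pericytes and 541 CPM in those neurons, and Grm8 at 149.9 and 713 CPM. Up to 42.0% of the vehicle UMIs of Zfp804a, 37.5% of those of Hs3st4, 37.0% of those of Sorcs3 and 27.4% of those of Grm8 lay in 1 member. In the same library the highest share of 1 member was 2.83% for Ntn1 and 2.53% for P2ry14. Nts, the neurotensin precursor, was found in 13.5% and 12.2% of members, with 18.3% and 10.5% of its UMIs in 1.

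**Figure D2:**
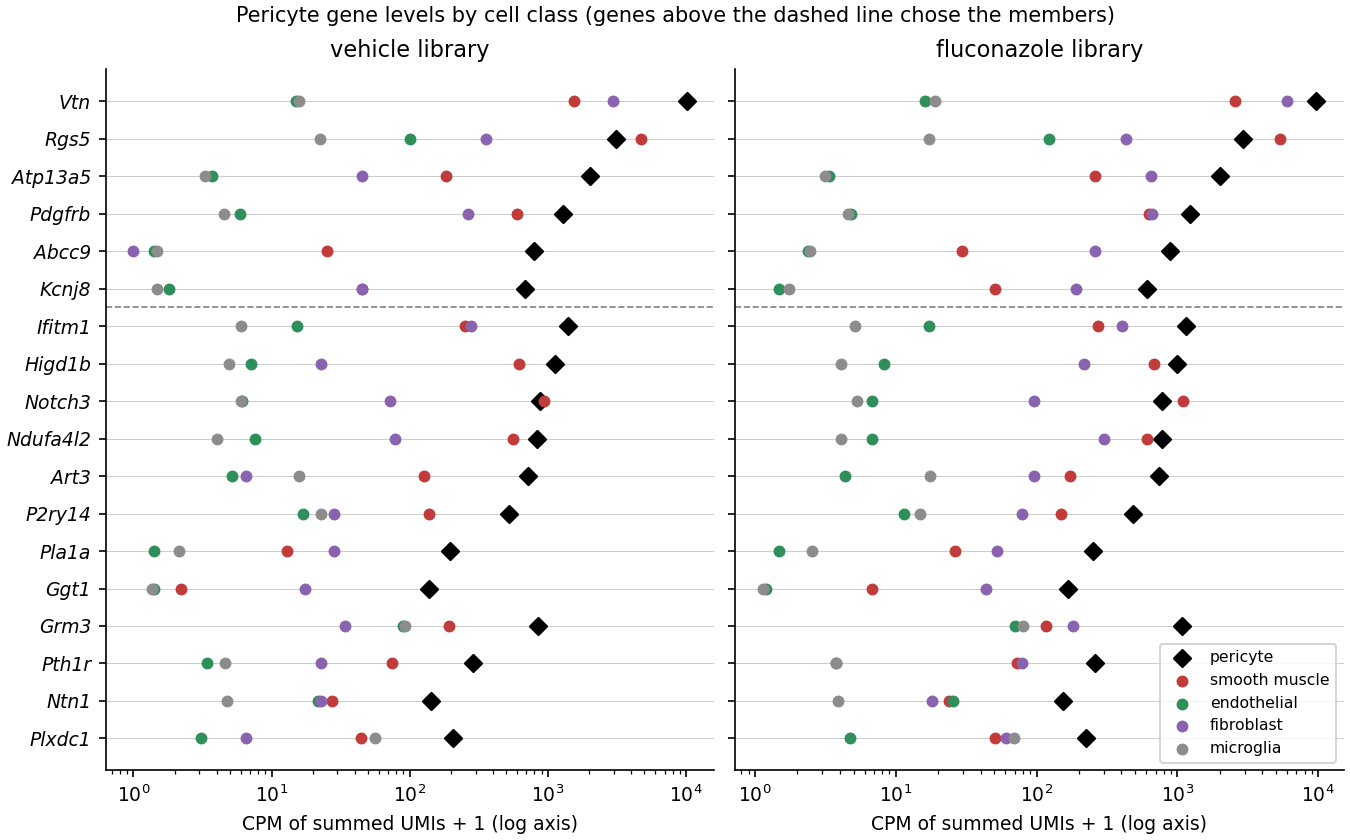
CPM of summed UMIs plus 1 (log axis) for 18 genes in pericytes (black diamonds) and 4 other classes, by library. Below the dashed line, for the drawn genes outside the rule, pericytes lie right of the other classes except for Notch3. Notch3 was higher in smooth muscle (931 and 1086 CPM) than in pericytes (874 and 777 CPM). Not all pericyte genes are drawn: of the 28 measured outside the rule, 14 were above smooth muscle, endothelial cells and fibroblasts in both libraries.

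Members were also compared among themselves, each thinned to 1000 UMIs, which left 275 and 277 of them. The Fano factor, variance over mean, was 1.06 and 1.06 for the median gene and is 1 for pure counting. The Fano factor grows with a gene's mean and was not scaled for it. Among pericyte genes that of Vtn was the largest, at 7.53 and 7.20, with a median of 13 and 12 UMIs per member and a range of 0 to 53 and 0 to 56. Rgs5 was at 2.31 and 2.40 and Pdgfrb at 1.52 and 1.56, with lower means (3.84 and 3.78, and 1.71 and 1.59 UMIs, against 13.3 and 12.7 of Vtn). Without the members led by another class Vtn remained at 6.21 and 6.02.

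Over all members the most variable genes included Nrxn3 (18.6 and 11.7), a synaptic adhesion protein. Its mean was 6.48 and 4.08 UMIs in members led by another class, and 0.234 and 0.333 in pericyte-led members. In the latter the Fano factor of Nrxn3 was 2.85 and 6.84. Ranked by the lower value of the 2 libraries, the nuclear RNA Malat1 led among pericyte-led members (9.31 and 11). Dpp10 (7.96 and 11.7), known from neurons, followed and was above Malat1 in the fluconazole library. After it stood Gpc5 (7.91 and 8.93), known from astrocytes. Pericyte-led members thus still held transcripts known from other cells. The immediate early gene Fos (7.31 and 6.99), the metallothionein Mt1 (7.32 and 6.72), Vtn, Jun (5.30 and 5.33), Wdr17 (8.19 and 4.52) and Junb (5.55 and 4.36) came next. A Fos UMI was found in 53.5% and 51.3% of thinned members, so both libraries held pericytes with and without it at this depth.

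For fluconazole over vehicle, 383 of 10453 measured genes (3.66%) were at least 2-fold higher and 225 (2.15%) at least 2-fold lower over all members. For pericyte-led members these were 269 (3.03%) and 174 (1.96%) of 8884 genes. Of the 383 and 225 genes, 106 and 74 were also past 2-fold in pericyte-led members. Most single-gene calls thus depended on which barcodes entered. By the naming rule, 12 genes were named in each direction over all members and again over pericyte-led members. Only 2 of the 12 higher genes, Cep290 and Zbtb16, and 5 of the 12 lower genes, Tmem267, Pianp, Isg15, Nr2c2ap and Cavin3, were named in both.

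Zbtb16, a zinc finger transcription factor known as a glucocorticoid target, was at 46.4 CPM (32.3 to 64.6) in vehicle and 109 CPM (89.8 to 131) in fluconazole pericytes. The log2 ratio was 1.23 (0.67 to 1.82), and 1.38 (0.53 to 2.31) in pericyte-led members. It was carried by 22 and 50 members. In the same libraries the log2 ratio was 1.89 (1.75 to 2.03) in endothelial and 0.68 (0.06 to 1.33) in smooth muscle cells. Cep290, a protein of the cilium base, had 7 and 37 UMIs over all members, a log2 ratio of 1.93 (0.74 to 3.34). In pericyte-led members it had 2 and 29 UMIs (3.41, 1.43 to 6.53), and in endothelial cells the ratio was 0.19.

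Tmem267, a membrane protein of little known function, was at 195 CPM (165 to 229) and 6.68 CPM (2.69 to 13.8), from 147 and 7 UMIs. Its log2 ratio of -4.87 (-6.21 to -3.79) was -3.59 (-4.97 to -2.46) in pericyte-led members, and it was also negative in smooth muscle (-2.73), endothelial cells (-2.29) and microglia (-1.99). Pianp, a ligand of the PILR alpha receptor, was at 45.1 and 9.55 CPM (log2 -2.24, -3.42 to -1.19), and its ratio was below 0 in those 3 classes. In glutamatergic neurons Tmem267 was lower as well (-6.09), while Pianp was at 13.4 and 16.4 CPM (0.28, -0.20 to 0.79).

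Cavin3, a coat protein of caveolae, was at 86.2 CPM (66.6 to 110) in vehicle and 32.5 CPM (22.5 to 45.4) in fluconazole pericytes. The log2 ratio was -1.41 (-2.05 to -0.79), and -1.62 (-2.37 to -0.90) in pericyte-led members, where 45 and 21 barcodes carried it. In endothelial cells it was 0.00 (-0.12 to 0.12), in smooth muscle -0.11 (-0.32 to 0.09) and in microglia -0.46 (-0.83 to -0.09). Whether the classes differ was not tested. Pik3r3, a regulatory subunit of PI3 kinase that acts below IGF1R and PDGF receptors, was at 47.8 and 105 CPM, with a log2 ratio of 1.14 (0.58 to 1.72), and 1.36 (0.63 to 2.16) in pericyte-led members. Lin7a, a scaffold protein, was at 466 and 770 CPM in pericyte-led members, found in 137 and 190 of them (0.72, 0.51 to 0.94).

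**Figure D3:**
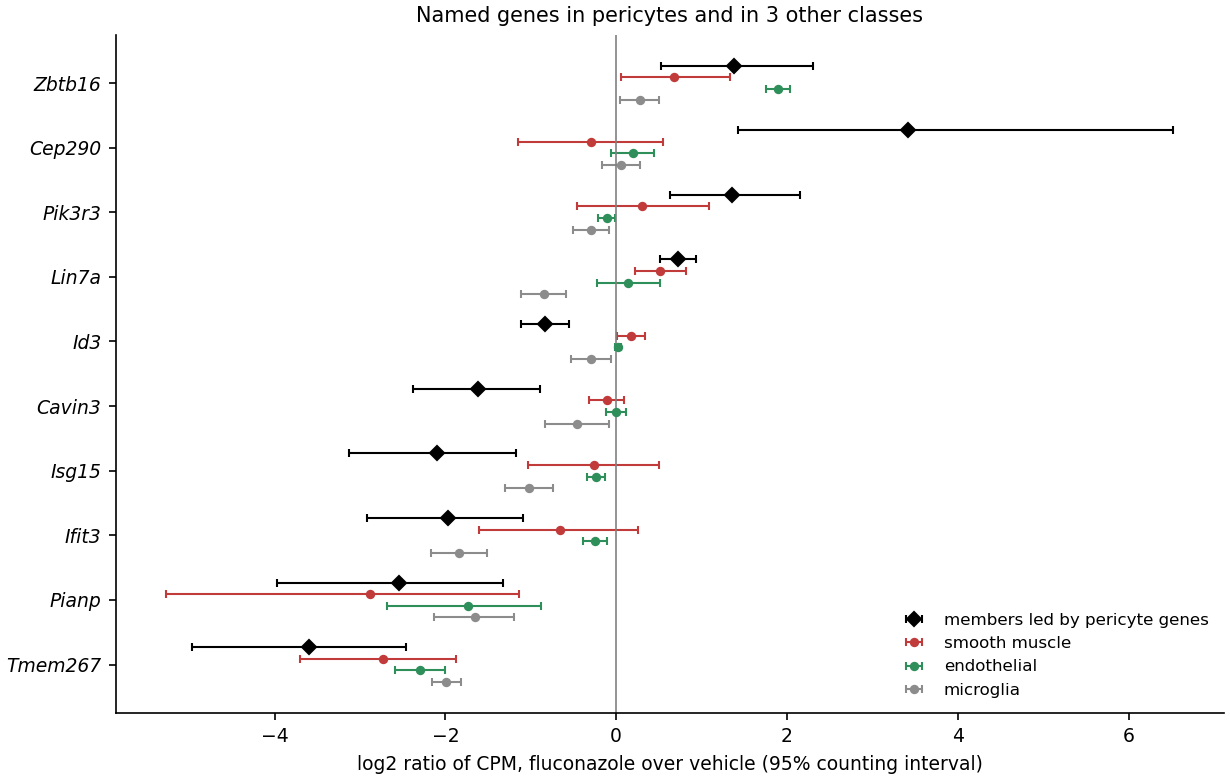
Log2 ratio of CPM, fluconazole over vehicle, with its 95% counting interval for 10 named genes in pericyte-led members (black diamonds), smooth muscle, endothelial cells and microglia. Tmem267 and Pianp lie left of 0 in the 4 classes, while Cavin3 and Id3 lie left of 0 in pericytes and near 0 in smooth muscle and endothelial cells. In microglia Cavin3 (-0.46, -0.83 to -0.09) and Id3 (-0.29, -0.53 to -0.05) also lie left of 0.

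Several other named genes had other values in pericyte-led members. Stmn1, a tubulin-binding protein of young neurons, had a log2 ratio of -0.99 over all members and of -0.10 (-0.65 to 0.45) in pericyte-led members. Basp1, a growth cone protein, had -1.21 and -0.26. Bcan, a glial matrix protein (1.29 over all members), and Cdh19, a cadherin of glial precursors, were among the higher genes and had too few UMIs to be measured in pericyte-led ones. Astrocyte markers were higher in 8 of 8 measured members of their list over all members, with a median log2 ratio of 0.54. In pericyte-led members it was -0.10 and 2 of 5 were higher, while the list's summed level was 4552 and 4972 CPM (log2 0.13, 0.05 to 0.20).

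Gene lists are given by counts and medians. Over all genes 51.9% were higher, with a median log2 ratio of 0.02, and in pericyte-led members 51.0% and 0.01. At least 2-fold higher were 3.66% of all genes and at least 2-fold lower 2.15%, over all members. These are the background for each list below. Lists were put together from textbook roles, with earlier results of these data known, and nothing is claimed as particular to a list.

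The interferon response list was the lowest of the pathway lists in its median. Of its 35 genes 21 were measured, 17 lower and 4 higher, with a median log2 ratio of -0.55. Of the 21, 5 were at least 2-fold lower, against 2.15% of all measured genes. In pericyte-led members 17 of 20 were lower and the median was -0.66. Summed over the list, the level was 1855 CPM in vehicle and 1247 CPM in fluconazole pericytes (log2 -0.57, -0.68 to -0.46). The median had the same sign under 11 of 11 other settings, between -0.84 and -0.24.

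Isg15, a ubiquitin-like protein that is joined to other proteins after interferon, was at 54.4 CPM (39.0 to 73.8) in vehicle and 14.3 CPM (8.02 to 23.6) in fluconazole pericytes. Its 41 UMIs lay in 22 vehicle members and its 15 UMIs in 15 fluconazole members. The log2 ratio was -1.93 (-2.89 to -1.04). Ifit3, an RNA-binding effector of the same response, was at 61.0 CPM (44.7 to 81.4) and 17.2 CPM (10.2 to 27.2), log2 -1.83 (-2.70 to -1.01). For both genes the counting intervals of the CPM do not overlap, and the share of all genes with such intervals is not given. Up to 23.9% of the vehicle UMIs of Ifit3 lay in 1 member. Counted by members the intervals do overlap: Isg15 was found in 7.64% (4.85 to 11.3) and 5.07% (2.86 to 8.22) of members, and Ifit3 in 9.03% (5.98 to 12.9) and 5.41% (3.12 to 8.63).

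Bst2, tetherin, which holds budding viruses on the cell surface, was at 41.1 CPM in the vehicle library, with 31 and 21 UMIs (log2 -1.04, -1.91 to -0.19). Gbp7, a guanylate-binding GTPase, was at 30.5 and 14.3 CPM (-1.09, -2.13 to -0.09). Ifitm3, a membrane protein that hinders virus entry and the best counted gene of the list with 758 and 720 UMIs, was at 1006 CPM (935 to 1080) and 687 CPM (638 to 739), log2 -0.55 (-0.70 to -0.40). The transcription factor Stat2 was at 34.5 and 19.1 CPM. Ifi27, a small membrane protein induced by interferon, was at 141 and 148 CPM (0.07, -0.29 to 0.44), so not every gene of the list was lower.

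Fewer interferon transcripts were seen in the fluconazole library in other classes as well. The list's median log2 ratio was -0.20 in endothelial cells (30 of 35 lower), -0.26 in smooth muscle (13 of 19) and -0.52 in microglia (32 of 35). For Isg15 the log2 ratio was -0.24 (-0.34 to -0.13) in endothelial cells, -0.26 (-1.03 to 0.51) in smooth muscle and -1.02 (-1.30 to -0.73) in microglia. Microglial markers summed to 697 and 485 CPM in members and to 26327 and 25162 CPM in microglia. Isg15 stood at 20.2 and 9.97 CPM in microglia, below its level in pericytes, and at 149 and 126 CPM in endothelial cells, above it. Ifit3 was at 92.0 and 77.6 CPM in endothelial cells. Endothelial markers summed to 1590 and 1429 CPM in members, and their part in these values was not tested. With free RNA subtracted at the level of the microglial C1q genes, 9.51% and 6.21% of member UMIs, the list's median in pericytes was -0.59.

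To show what the upstream regions of these genes hold, the RefSeq windows of 250 bases before the start site (GRCm38.p6) were searched on both strands for GAAA followed after any 2 bases by GAAA, the core of the interferon-stimulated response element that Stat2 and Irf9 bind in a complex. Of 16 measured interferon genes with a window 6 held it, against 3.46% of 27025 genes with one. The windows below are 80 bases on the gene's strand, with matches in capitals. On the other strand the motif reads TTTC, any 2 bases, TTTC, and matches may overlap. They are Isg15 at chr4:156200846-156200925 (minus strand), Ifit3 at chr19:34583355-34583434 (plus), Bst2 at chr8:71537555-71537634 (minus) and Gbp7 at chr3:142530248-142530327 (plus).
Isg15: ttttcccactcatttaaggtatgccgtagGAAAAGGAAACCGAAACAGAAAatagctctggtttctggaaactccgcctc
Ifit3: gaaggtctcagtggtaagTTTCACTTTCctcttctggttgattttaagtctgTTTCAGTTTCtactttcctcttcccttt
Bst2: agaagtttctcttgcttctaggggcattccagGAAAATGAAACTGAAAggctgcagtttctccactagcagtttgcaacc
Gbp7: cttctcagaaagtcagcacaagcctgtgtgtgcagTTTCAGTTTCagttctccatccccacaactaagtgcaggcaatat
Isg15 held 3 matches from 78 bases upstream of its start, Bst2 2 from 130, Ifit3 2 from 156 and Gbp7 1 from 53. A match is a description of the letters and shows no binding in these cells.

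The glucocorticoid-induced list had the highest median of the pathway lists over all members: 16 of 20 measured genes were higher, with a median log2 ratio of 0.27, and 15 of 19 with 0.33 in pericyte-led members. Its summed level was 2658 and 2977 CPM (log2 0.16, 0.08 to 0.25), and the median kept its sign under 11 of 11 other settings (0.19 to 0.33). Besides Zbtb16, Cebpd, a leucine zipper transcription factor, was at 182 CPM (153 to 215) and 267 CPM (237 to 301), log2 0.56 (0.26 to 0.86), and 0.60 in pericyte-led members. Klf9, a zinc finger factor, was at 340 and 418 CPM (0.30, 0.07 to 0.53). Sult1a1, a sulfotransferase, was at 19.9 and 37.2 CPM (0.90, 0.01 to 1.87), and Fkbp5, a co-chaperone of the glucocorticoid receptor, at 14.6 and 28.6 CPM (0.97, -0.06 to 2.12).

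Sgk1, a kinase that controls ion transport, was at 53.1 and 108 CPM over all members (1.02, 0.49 to 1.58). In pericyte-led members its log2 ratio was 0.41 (-0.40 to 1.25), from 21 and 38 UMIs. Members of the list in the other direction were Gadd45g, a growth arrest gene (30.5 and 11.5 CPM, -1.41), and Zfp36, which breaks down cytokine mRNA (332 and 220 CPM, -0.60). The list's median was 0.35 in endothelial cells (20 of 27 higher) and -0.10 in smooth muscle cells (8 of 25 higher). That difference between classes was not tested.

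The glucocorticoid receptor's palindrome, GNACA and TGTNC with any 3 bases between, was found upstream of 2 of 17 measured glucocorticoid genes with a window, Sgk1 and Mt1, against 0.440% of 27025 genes. The Sgk1 window, chr10:21993668-21993747 (plus), holds it 188 bases upstream of the start, in capitals below.
Sgk1: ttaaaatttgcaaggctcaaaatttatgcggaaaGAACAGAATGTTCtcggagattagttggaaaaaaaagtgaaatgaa

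**Figure D4:**
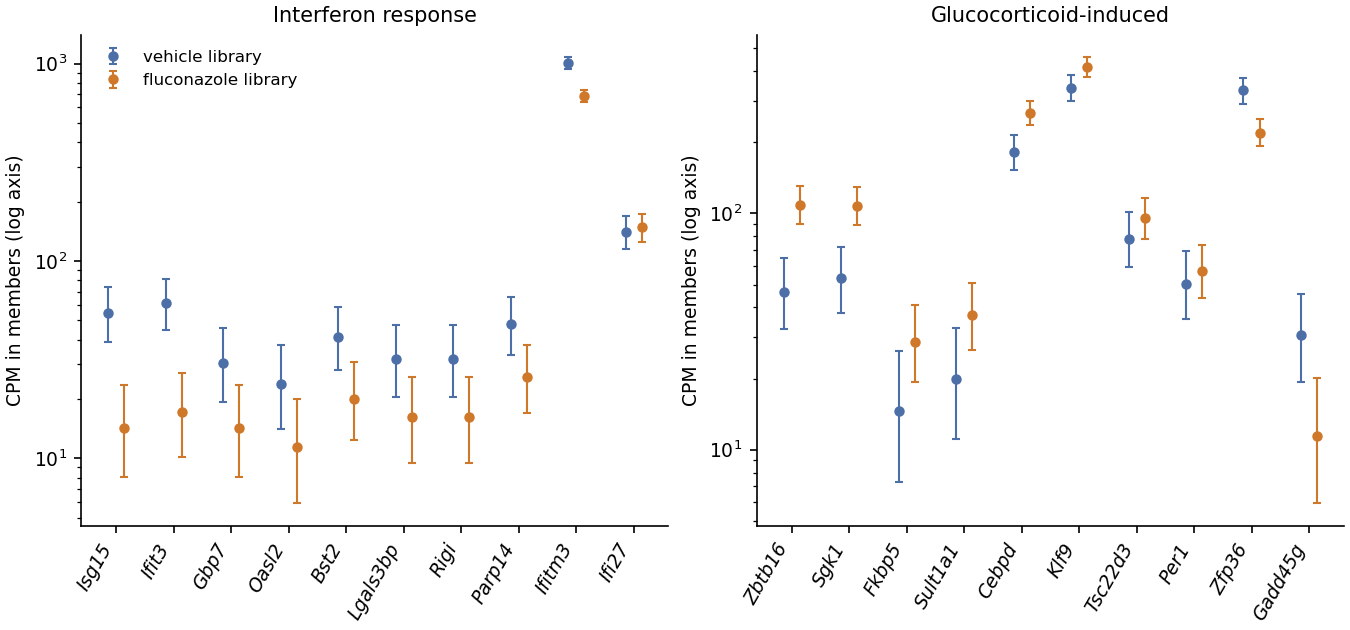
CPM in pericytes (all members, log axis) with exact 95% Poisson intervals in the vehicle (blue) and fluconazole (orange) library, for 10 interferon response and 10 glucocorticoid-induced genes. Isg15, Ifit3 and Ifitm3 have intervals that do not overlap and are lower under fluconazole. Zbtb16, Cebpd and Sgk1 are among the higher genes, and Ifi27 lies level. Counted by members, the intervals of Isg15 and Ifit3 overlap.

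Signalling to and from the vessel wall gave mostly small values. For the PDGF receptor list 13 of 26 measured genes were higher, with a median log2 ratio of -0.01, and Pdgfrb itself was at 1286 and 1217 CPM (-0.08, -0.20 to 0.04). Notch genes were lower in 12 of 20, with a median of -0.17 (-0.15 in pericyte-led members). The receptor Notch3 was at 874 and 777 CPM (-0.17, -0.32 to -0.02). Its nuclear partner Rbpj was at 107 and 74.5 CPM (-0.53), and Nrarp, a feedback inhibitor and target, at 77.0 and 41.1 CPM (-0.91, -1.51 to -0.31). The targets Hes1 (150 and 158 CPM) and Hey2 (95.5 and 104 CPM) lay near level.

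In the TGF beta and BMP list 19 of 28 genes were lower, with a median of -0.05 over all members and -0.17 in pericyte-led members (19 of 25). The ligand Tgfb1 was at 66.3 CPM (49.2 to 87.5) and 33.4 CPM (23.3 to 46.5), log2 -0.99 (-1.66 to -0.34). Id3, a helix-loop-helix inhibitor induced by BMP receptors, was at 340 CPM (299 to 384) and 194 CPM (168 to 222), log2 -0.81 (-1.08 to -0.54), and its relative Id1 at 109 and 74.5 CPM (-0.55, -1.01 to -0.08). Id3 UMIs lay in 85 and 80 members, of which 1 held up to 12.9%. In endothelial cells the log2 ratio of Id3 was 0.02 and in smooth muscle 0.17 (0.01 to 0.34). It was below 0 in microglia (-0.29, -0.53 to -0.05) and in glutamatergic neurons (-0.56, -0.94 to -0.18). The receptors were level or higher: Bmpr2 was at 161 and 198 CPM and Tgfbr2 at 79.6 and 79.2 CPM.

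Angiopoietin, VEGF and other cues had a median of -0.10, with 16 of 27 genes lower. Angpt1, the ligand by which mural cells act on the endothelial receptor Tek, was at 66.3 and 90.7 CPM (0.45, -0.06 to 0.98). Ptn, a secreted heparin-binding factor, was at 6118 and 6147 CPM (0.01, -0.05 to 0.06). Gjc1, a gap junction protein of mural cells, was at 555 and 492 CPM (-0.17, -0.36 to 0.02). Robo1, a guidance receptor, was at 284 and 473 CPM (0.73, 0.50 to 0.97), yet only 32 and 44 members held it and up to 16.2% of its UMIs lay in 1.

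Among channels and pumps 16 of 32 measured genes were higher, with a median of 0.00. The channel pair lay near level: Kcnj8 had a log2 ratio of -0.17 (-0.34 to 0.00) and Abcc9 of 0.16 (0.01 to 0.31). Itpr2, an intracellular calcium release channel, was at 318 and 490 CPM (0.62, 0.40 to 0.85), and 0.45 (0.21 to 0.69) in pericyte-led members. Kcnma1, the large conductance potassium channel, had a log2 ratio of -0.38 over all members and 0.97 in pericyte-led members, with up to 31.6% of its UMIs in 1 member, and is read in neither direction.

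Vasoactive and other G protein-coupled receptors and their effectors were lower in 24 of 34 genes, with a median of -0.16 (-0.14 in pericyte-led members). The endothelin receptor Ednra was at 320 and 263 CPM (-0.28, -0.54 to -0.03), and the G protein brake Rgs4 at 739 and 628 CPM (-0.23, -0.40 to -0.07). Contraction genes were lower in 21 of 31, with a median of -0.06. Ppp1r14a, an inhibitor of myosin phosphatase, was at 447 and 277 CPM (-0.69, -0.92 to -0.46), and the intermediate filament protein desmin, Des, at 114 and 80.2 CPM (-0.51, -0.96 to -0.06). The kinase Rock1 was at 248 and 331 CPM (0.42, 0.16 to 0.68).

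Collagen, laminin and other matrix genes were split, 16 of 31 higher, with a median of 0.01, and 12 of 30 with -0.04 in pericyte-led members. Col3a1, a fibrillar collagen, was at 102 and 56.3 CPM (-0.86, -1.37 to -0.35), and Col4a3, of the basement membrane, at 39.8 and 70.6 CPM (0.83, 0.20 to 1.49). In pericyte-led members the log2 ratios were -0.81 and 0.86. Solute carriers and transporters were higher in 15 of 24, with a median of 0.11. Slc22a8, an organic anion carrier, was at 222 and 279 CPM (0.33, 0.05 to 0.61), and Slco3a1 at 551 and 480 CPM (-0.20, -0.39 to -0.01).

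The systems in the study's title showed no common direction in pericytes. Igf1r was at 220 CPM (188 to 256) and 210 CPM (183 to 240), log2 -0.07 (-0.37 to 0.23). The IGF1 receptor and insulin list was higher in 27 of 34 genes, with a median of 0.15, and in 21 of 31 with 0.09 in pericyte-led members. Its summed level was 5746 and 5903 CPM (log2 0.04, -0.02 to 0.10). Besides Pik3r3, the transcription factor Foxo3 was at 34.5 and 62.1 CPM (0.85, 0.17 to 1.56), and Igfbp7, a secreted binding protein, at 2145 and 1935 CPM (-0.15, -0.24 to -0.05).

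Cyp51 was at 49.1 CPM (34.6 to 67.7) and 47.7 CPM (35.4 to 62.9), log2 -0.04 (-0.68 to 0.61). Cholesterol synthesis genes were higher in 9 of 17, with a median of 0.03. Ebp, a sterol isomerase, was at 43.8 and 21.0 CPM (-1.06, -1.91 to -0.24). In pericyte-led members 8 of 14 cholesterol genes were higher, with a median of 0.09, and the lowest ratio of the list was -0.82. Caveola, raft and sphingolipid genes were lower in 15 of 23, with a median of -0.06, and in 14 of 19 with -0.17 in pericyte-led members. Beside Cavin3, Degs1, a ceramide desaturase, was at 102 and 69.7 CPM (-0.55, -1.03 to -0.07). Cavin1 was at 57.1 and 52.5 CPM (-0.12, -0.72 to 0.49), and Cav1, at 11.9 and 16.2 CPM, had few UMIs. Shank3 transcripts counted 12 and 10 UMIs in pericytes (15.9 and 9.55 CPM), too few to compare, and with both libraries labelled as knockout they check no label.

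Immediate early genes were lower in 20 of 24, with a median of -0.28, and in 15 of 22 with -0.20 in pericyte-led members. Egr1, a zinc finger factor, was at 1134 and 750.4 CPM (-0.60, -0.74 to -0.45), Junb at 1089 and 789.5 CPM (-0.46, -0.61 to -0.32), and Fosb at 653 and 654 CPM. Heat shock and unfolded protein genes were lower in 15 of 20, with a median of -0.18. The chaperone Hspa1a was at 263 and 155 CPM (-0.76, -1.07 to -0.46) and the small heat shock protein Hspb1 at 532 and 341 CPM (-0.64, -0.85 to -0.43). Both lists hold genes that respond to tissue handling, and the part of handling was not tested. In endothelial cells the medians were 0.00 and -0.16.

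Ribosomal protein genes were lower in 79 of 82, with a median of -0.23, and in 69 of 82 with -0.13 in pericyte-led members. Nuclear-retained RNAs were higher in 9 of 10, with a median of 0.25, and in 7 of 8 with 0.30. Their summed level had a log2 ratio of 0.10 (0.08 to 0.12), and of 0.02 (-0.01 to 0.04) in pericyte-led members. Meg3 was at 1275 and 1552 CPM (0.28, 0.17 to 0.40). The share of nuclei among barcodes is not stated for either library, and its part in these values was not tested. Mitochondrially encoded genes had a median of -0.07, and nuclear genes of the respiratory chain -0.09.

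The 28 measured pericyte identity genes were lower in 20, with a median of -0.12, and in 19 with -0.07 in pericyte-led members. None was past 2-fold in either direction, and of all genes measured over all members 3.66% were so higher and 2.15% lower. The widest were Pla1a (0.36, 0.07 to 0.67) and Slc6a13, a GABA and taurine carrier (-0.34, -0.91 to 0.23). Ifitm1, which is also an interferon-induced gene, was at 1398 and 1141 CPM (-0.29, -0.41 to -0.17). Ebf1, a transcription factor of mural cells, was at 1562 and 1557 CPM.

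Among other lists, chemokine and adhesion genes were lower in 16 of 30 with a median of -0.08, and 15 of 23 were higher with 0.09 in pericyte-led members. Cxcl2, at 53 and 2 UMIs, had 98.1% of its vehicle UMIs in 1 member. Cxcl1, a neutrophil chemokine, was at 80.9 and 41.1 CPM (-0.98, -1.58 to -0.39), found in 11 and 13 members. Circadian clock genes were higher in 11 of 16, with a median of 0.16: Cry1 stood at 34.5 and 61.1 CPM (0.82, 0.15 to 1.54), and Dbp, an output gene in antiphase to it, at 218 and 160 CPM (-0.44, -0.76 to -0.12). The hour of tissue collection is not stated.

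MHC class I genes had a median of 0.00, with B2m at 157 and 100 CPM (-0.64, -1.04 to -0.25). Hypoxia and glycolysis genes had a median of -0.05, oxidative stress genes of 0.02, sterol uptake genes of 0.03, and transcription factors of pericytes of -0.14. In pericyte-led members these medians were -0.05 for hypoxia, -0.12 for oxidative stress, 0.20 for sterol uptake and -0.06 for transcription factors. Cytochrome P450 and retinoid genes were higher in 9 of 11, with a median of 0.16. Among them Rarb, a retinoic acid receptor, was at 47.8 and 121 CPM (1.34), with 26.8% of its fluconazole UMIs in 1 member and a log2 ratio of 0.35 (-0.28 to 1.00) in pericyte-led members.

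**Figure D5:**
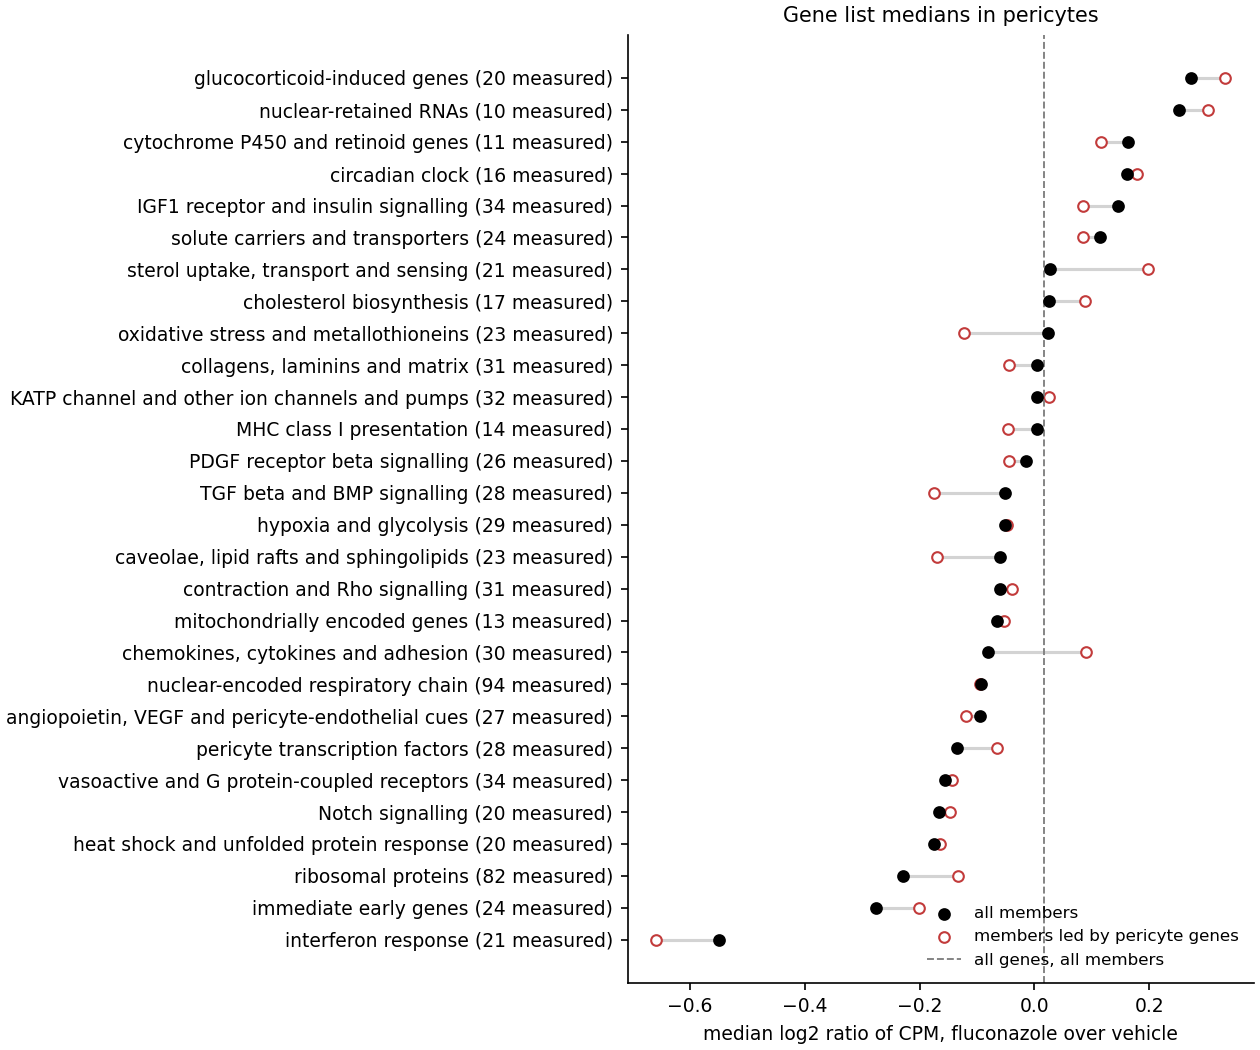
Median log2 ratio of CPM, fluconazole over vehicle, of each pathway list in all members (black) and in pericyte-led members (open red), with the median of all genes as a dashed line. The interferon response list lies farthest left at -0.55 and -0.66, and the glucocorticoid-induced list farthest right at 0.27 and 0.33.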

How the data were processed

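UMIs were counted from 3′ droplet libraries, and the deposited values are raw counts per gene and barcode. Per the file headers the matrices were written by Cell Ranger 8.0.1, while the submitters' processing notes list version 9.0.0 of it, the mm10 genome, R 4.0.3 and Seurat 4.0.0. Intron counting and cell calling are not given in the sources used here. The members, gene lists and naming rule were chosen with earlier results of these data known. UMIs were summed over members per library and scaled to CPM over 33696 features. Genes with at least 20 UMIs over both libraries were compared, and a gene was called past 2-fold. Genes at 0 were set against 3 counts. Intervals are exact at 95%: Poisson for CPM, Clopper-Pearson for shares, conditional binomial for ratios. No p-value was computed. The genes named were, in each direction, the 12 whose interval bound nearest 0 was farthest from it, with a UMI in at least 10 members of the higher library and at most 25% of that library's UMIs in 1 member, leaving out the rule's 15 genes, mitochondrial and ribosomal genes and unnamed gene models. The 25 genes highest over smooth muscle, endothelial and fibroblast classes with at least 50 UMIs per library, the 12 of highest Fano factor and up to 4 genes per list were also ranked, and others were named to describe a list. Comparison classes were smooth muscle (at least 6 UMIs and 2 genes of Acta2, Myh11, Tagln), endothelial (at least 4 UMIs of Flt1, Pecam1, Mecom), fibroblast (at least 3 UMIs of Dcn) and microglia (at least 2 of Cx3cr1), with limits on other classes. Endothelial, microglia and glutamatergic barcodes could hold UMIs of at most 1 of the 6 pericyte genes of the rule. Doublets were marked with Scrublet (scanpy 1.11.5, expected rate 8%). Ratios were tested on simulated counts drawn independently, as the intervals assume. Clumping of UMIs in single members was not simulated, so the coverage of the intervals in these data remains untested. Python 3.11.15, numpy 2.4.6 and scipy 1.17.1 were used.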

Additional observations from a re-analysis of the deposited data

Results flagged for a closer look

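Erbb4, a neuregulin receptor, had a log2 ratio of fluconazole over vehicle of 1.23 (1.04 to 1.42) in pericytes and of -4.47 (-7.54 to -2.56) in fibroblasts, opposite directions in the 2 classes. The difference was not tested, and the fibroblast value rests on 71 UMIs. In pericyte-led members the ratio was 1.64 (1.32 to 1.96), and it was -0.93 in smooth muscle, -0.41 in endothelial cells and -0.59 in microglia. Erbb4 was not named in pericyte-led members, although Sdk2, with a bound of 0.97, was. Erbb4 thus failed the limit of 10 members with a UMI or of 25% of UMIs in 1 member there. In pericytes its UMIs, 298 and 969, lay in 39 and 32 members, and up to 20.8% of the fluconazole UMIs lay in 1 member.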

How the results depend on the processing

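No paired analysis was possible because each treatment has 1 library, and for the same reason no replicate could be left out. Of the 383 genes at least 2-fold higher and the 225 lower, thinning each member to 1000 UMIs gave 158 and 171 of 5713 genes, and 14 and 22 were shared with the main calls. Requiring at least 100 UMIs gave 50 and 19 of 4085 genes, and at least 5 UMIs gave 1062 and 952 of 14408. Neither count moved by over 1.5 times under median-of-ratios scaling, a mean over members, free RNA subtraction or Scrublet calls. The same held at 0 endothelial UMIs and with stricter limits on the 6 genes or on mitochondrial UMIs, where fewer genes were tested. At 0 endothelial UMIs 401 (4.89%) and 334 (4.08%) of 8194 genes were called, against shares of 3.66% and 2.15% in the main setting. The genes were not always the same: 150 and 76 were shared at 0 endothelial UMIs, and 110 and 78 with at least 4 of the 6 genes. The restriction to pericyte-led members was added after the data were seen. Igf1r kept its sign in 6 of 9 settings and Cyp51 in 8 of 9. Few UMIs per gene limit all single-gene ratios.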
